A study of Mus musculus with 18 samples.

Results

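Collagen chain genes are the genes whose mouse symbols have the form Col, a type number, the letter a and a chain number. Choosing them by symbol alone gave 44 of the 19630 genes in the table, from 27 collagen types, with 184 transcript models that were summed per gene. Of these 44 genes, 42 passed the filter on low counts, and Col4a3 and Col19a1, which had too few counts, were not tested. Messenger RNA was sequenced in 18 mouse libraries, 3 for each of 6 groups. The groups were ES (embryonic stem) cells on feeders labelled p53-defective, ES cells grown with ATN161 instead of feeders, ES cells from control feeder culture after feeder removal, ES cells on control feeders, p53-defective feeders alone and control feeders alone. Feeders are the embryonic fibroblast layer on which mouse ES cells are commonly grown, and ATN161 is given in the labels as an inhibitor of integrin α5β1, a fibronectin receptor. The labels give no strain, age, passage, dose or time, and they do not say which defect of p53 the feeders carry or whether feeders were separated off or left out. Both kinds of co-culture are labelled as ES cells together with embryonic fibroblasts, so their libraries hold RNA of both. Replicates are not stated to be separate cultures, so the spread behind the p-values is that of these libraries and may be technical.

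Collagens are extracellular matrix proteins built of chains that wind around each other in a triple helix. Fibrillar chains form the ropes of connective tissue, chains of type IV form the network of basement membranes, chains of type VI form beaded filaments, and fibril-associated chains decorate the surface of fibrils. Fibroblasts are a main source of type I, III, V and VI chains, and collagens are ligands of integrins other than the fibronectin receptor α5β1.

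Promoter sequences are printed for 4 chain genes whose RNA levels set the groups apart. Col4a6 and Col4a5 lie head to head on the X chromosome with 1274 bases between the annotated genes and were the pair with more RNA in the p53-defective feeders. Col1a2 was the highest chain in control feeders, and Col18a1 was the highest chain in ES cells with ATN161. The sequences are from RefSeq (GRCm38.p6), read 5′ to 3′ on the strand of the gene, and hold the bases just before the annotated gene. They lie at chrX:141474096-141474326 on the minus strand, chrX:141475169-141475369 on the plus strand, chr6:4505368-4505617 on the plus strand and chr10:77166531-77166780 on the minus strand. Capitals mark the CCAAT box, the TATA box TATAAA and the GC box GGGCGG, on either strand.
Col4a6: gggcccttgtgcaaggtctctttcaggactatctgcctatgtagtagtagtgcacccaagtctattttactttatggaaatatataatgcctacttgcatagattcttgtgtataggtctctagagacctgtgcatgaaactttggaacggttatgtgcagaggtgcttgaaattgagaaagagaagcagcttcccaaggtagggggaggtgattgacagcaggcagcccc
Col4a5: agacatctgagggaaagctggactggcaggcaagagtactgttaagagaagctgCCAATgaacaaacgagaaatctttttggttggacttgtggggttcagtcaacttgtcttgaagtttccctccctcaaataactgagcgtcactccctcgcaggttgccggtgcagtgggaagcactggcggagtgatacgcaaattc
Col1a2: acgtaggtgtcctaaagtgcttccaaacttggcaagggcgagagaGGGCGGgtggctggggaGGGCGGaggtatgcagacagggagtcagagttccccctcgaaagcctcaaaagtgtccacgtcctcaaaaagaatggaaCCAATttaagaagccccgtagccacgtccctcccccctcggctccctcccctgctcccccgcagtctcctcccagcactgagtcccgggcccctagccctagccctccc
Col18a1: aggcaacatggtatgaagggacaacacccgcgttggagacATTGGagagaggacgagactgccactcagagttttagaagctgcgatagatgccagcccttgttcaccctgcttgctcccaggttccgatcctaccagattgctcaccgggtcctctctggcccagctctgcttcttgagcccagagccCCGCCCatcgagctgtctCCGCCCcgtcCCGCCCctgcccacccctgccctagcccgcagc
Over the 250 bases before each start, 38 windows of 35 chain genes were in the RefSeq table. GGGCGG was present in 22 of these windows (57.9%), against 32.7% of all 32851 windows. CCAAT was present in 13 (34.2%), against 33.8% of all windows, and TATAAA in 5 (13.2%), against 12.4%. Matches to different motifs may overlap, and a match is a match of letters only. The printed Col4a6 stretch holds none of these motifs and the Col4a5 stretch holds 1 CCAAT, while the windows of both genes also hold a GGGCGG in bases that reach into the annotated gene and are not printed. The Col1a2 window holds 1 CCAAT and 2 GGGCGG, and the Col18a1 window holds 1 CCAAT and 3 GGGCGG.

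Library totals were 15.12 to 19.83 M (mega) counts. Trp53, which encodes p53, was present in every library at 112 to 445 CPM (counts per M, TMM-scaled) and was at 326, 317 and 244 CPM in the p53-defective feeders, against 123, 124 and 112 CPM in control feeders. RNA level does not show which alteration the label names. The summed level of 12 ES cell markers was 305 to 448 CPM on p53-defective feeders, 6160 to 6410 with ATN161, 4910 to 5070 after feeder removal and 3590 to 3740 on control feeders. The same sum was 0.635 to 1.53 CPM in p53-defective feeders and 0.752 to 1.22 in control feeders. The 12 fibroblast markers, which are not collagens, summed to 1110 to 1160 CPM on p53-defective feeders, 201 to 235 with ATN161, 922 to 1030 after feeder removal and 945 to 1010 on control feeders. They summed to 412 to 579 CPM in p53-defective feeders, with 9 of 12 at 1 CPM or more, and to 8410 to 10400 in control feeders. The 10 mesothelial markers summed to 2140 to 2230 CPM on p53-defective feeders and to 1410 to 2090 in those feeders alone, against 62.4 to 71.3 in control feeders and 23.8 to 48.7 in the other groups of ES cells. None of the fibroblast or mesothelial markers was at 0 in either feeder group. The 10 macrophage markers summed to 11.1 to 15 CPM in p53-defective feeders, with Adgre1, Ptprc, Tyrobp and Fcer1g at 0, against 127 to 174 CPM in control feeders. Over all 6 groups, endothelial markers summed to 8.03 to 168 CPM, skeletal muscle markers to 0.635 to 8.46, chondrocyte markers to 6.29 to 70.0, primitive and parietal endoderm markers to 282 to 928, osteoblast markers to 18.8 to 127 and basal epithelium markers to 1.15 to 19.8. In these bulk libraries, fewer cells of a type and less RNA per cell cannot be told apart.

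Collagen RNA was most abundant in control feeders and least abundant in ES cells with ATN161. On the TPM scale, which corrects for length and allows levels of different genes to be compared, the 44 chain genes summed to 4340, 3360 and 6210 TPM in ES cells on p53-defective feeders. The sum was 493, 463 and 473 TPM with ATN161, 1460, 1530 and 1430 after feeder removal, and 2900, 2710 and 2770 on control feeders. It was 2660, 2890 and 4100 TPM in p53-defective feeders and 11000, 12400 and 13100 in control feeders. No library of p53-defective feeders reached the lowest control feeder library, whereas each library of ES cells on p53-defective feeders lay above each library of ES cells on control feeders. Replicate 3 was the highest of its 3 libraries in both feeder groups and also in the co-culture on p53-defective feeders. The number of chain genes with a mean of at least 1 TPM was 22 on p53-defective feeders, 24 with ATN161, 25 after removal, 28 on control feeders, 22 in p53-defective feeders and 32 in control feeders.

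The leading chains differed between the groups. Col1a1, Col1a2 and Col3a1, the chains of the type I and type III fibrils, held 65.3 ± 1.2% of the summed chain TPM on p53-defective feeders, 29.6 ± 0.325% with ATN161, 52.0 ± 2.19% after removal and 52.8 ± 0.729% on control feeders (mean ± SD, n = 3). They held 46.5 ± 0.310% in p53-defective feeders and 65.9 ± 1.01% in control feeders. In ES cells on p53-defective feeders Col1a1 led with 1490 ± 533 TPM, before Col1a2 with 896 ± 276 and Col3a1 with 653 ± 195, with ranges that overlapped from each to the next. The order in ES cells with ATN161 began with Col18a1, a basement membrane chain whose end piece is endostatin, at 129 ± 2.44 TPM or 27.2% of the sum. Col3a1 followed there at 54.7 ± 1.55 TPM, clear of Col18a1 and of Col1a1 at 44.2 ± 1.52 TPM. After feeder removal Col3a1 stood first at 356 ± 27.5 TPM, and Col1a2, Col18a1 and Col1a1 followed at 217 ± 17.3, 209 ± 18.2 and 196 ± 13.3 TPM with overlapping ranges. On control feeders Col3a1 stood first at 673 ± 20.4 TPM, followed by Col18a1 at 436 ± 13.0 and Col1a1 at 427 ± 19.5, which overlapped. The p53-defective feeders had Col1a1 at 781 ± 166 TPM, Col5a2, a minor fibrillar chain, at 522 ± 131 and Col1a2 at 513 ± 142, all with overlapping ranges. Control feeders had Col1a2 at 3690 ± 306 TPM, Col1a1 at 2800 ± 300 and Col3a1 at 1550 ± 215, in an order without overlap.

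**Figure D1:**
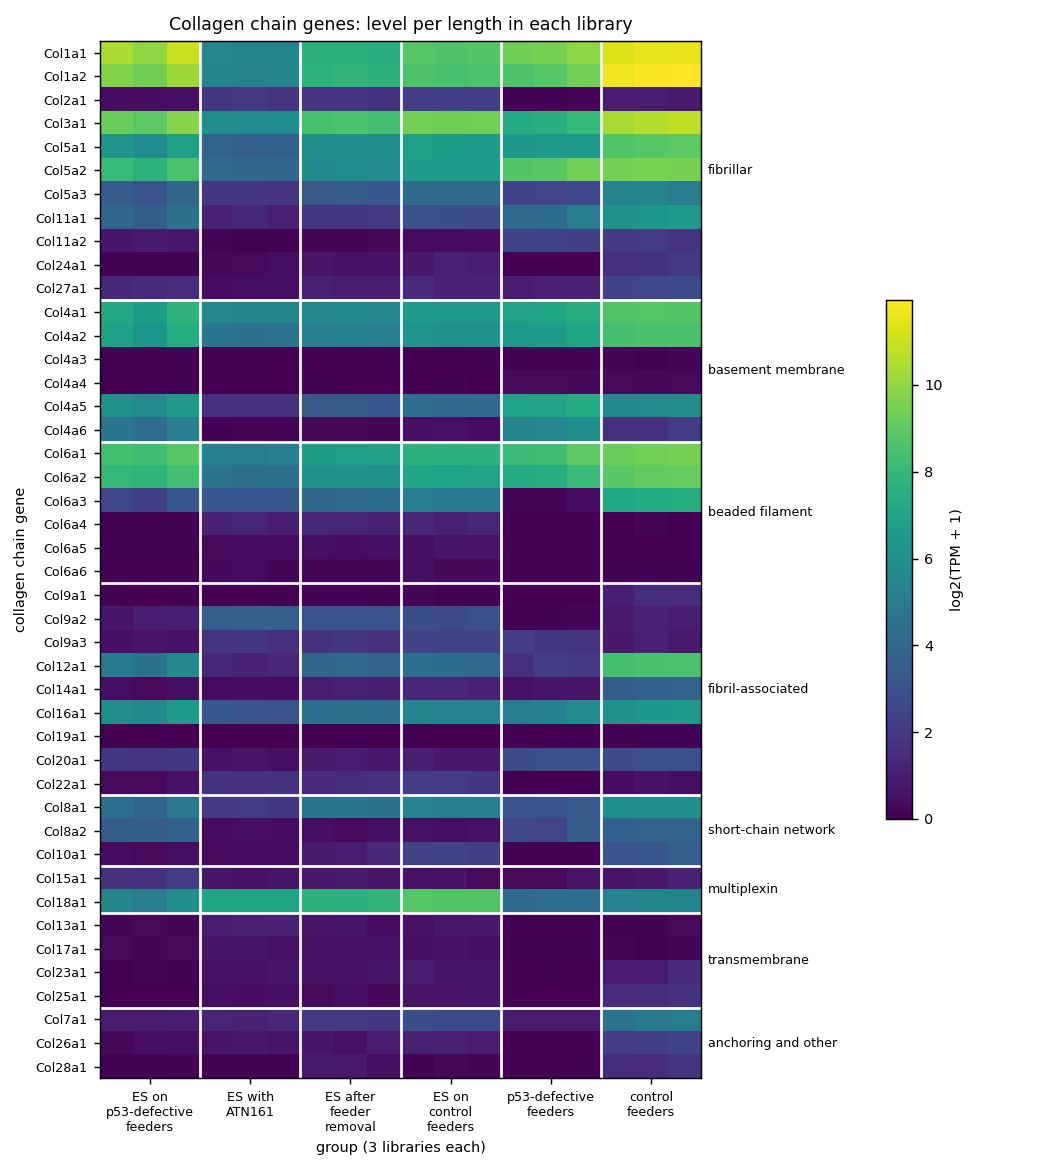
Level of each of the 44 collagen chain genes (rows, by class) in each of the 18 libraries (columns, by group) as log2(TPM + 1). Control feeders, at the right, are brightest for most fibrillar chains, Col4a5 and Col4a6 are brighter with p53-defective feeders, and Col18a1 is brightest in ES cells on control feeders.

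Partner chains of a trimer were not in fixed proportion. The ratio of Col1a1 to Col1a2 TPM was 1.65 ± 0.1 on p53-defective feeders and 1.54 ± 0.0906 in p53-defective feeders, against 0.759 ± 0.0237 in control feeders (mean ± SD, n = 3). It was 1.05 ± 0.0230 with ATN161, 0.904 ± 0.0399 after removal and 1.14 ± 0.00183 on control feeders. The libraries with p53-defective feeders lay above all libraries of the other 4 groups. Col4a1 to Col4a2, the common basement membrane pair, stayed at 1.21 to 1.4 as a group mean except with ATN161, where it was 1.87 ± 0.0709. Col6a1 to Col6a2 ranged from 1.27 ± 0.0344 in control feeders to 1.76 ± 0.0625 in p53-defective feeders. The ratio of Col5a1 to Col5a2 was 0.277 ± 0.0167 on p53-defective feeders and 0.168 ± 0.0335 in those feeders alone, against 0.630 ± 0.0337 in control feeders, and 0.822 ± 0.0285, 1.13 ± 0.0509 and 1.08 ± 0.0581 with ATN161, after removal and on control feeders. The widest spread was in Col6a3 to Col6a1, at 0.0151 ± 0.00347 on p53-defective feeders and 0.000523 ± 8.06e-05 in those feeders alone, against 0.235 ± 0.00298 in control feeders. It was 0.250 ± 0.0124 with ATN161, 0.152 ± 0.00607 after removal and 0.153 ± 0.00160 on control feeders. With curated transcript models alone, the ratios of Col5a1 to Col5a2 were 0.0775 to 0.771 and those of Col6a3 to Col6a1 were 0.0 to 0.141, with the 2 groups that hold p53-defective feeders still lowest in each. Col6a3 to Col6a1 then was 0.0411 in control feeders, which put them below ES cells after removal (0.0702) and on control feeders (0.0827). The ratios are given as a description, with no test.

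**Figure D2:**
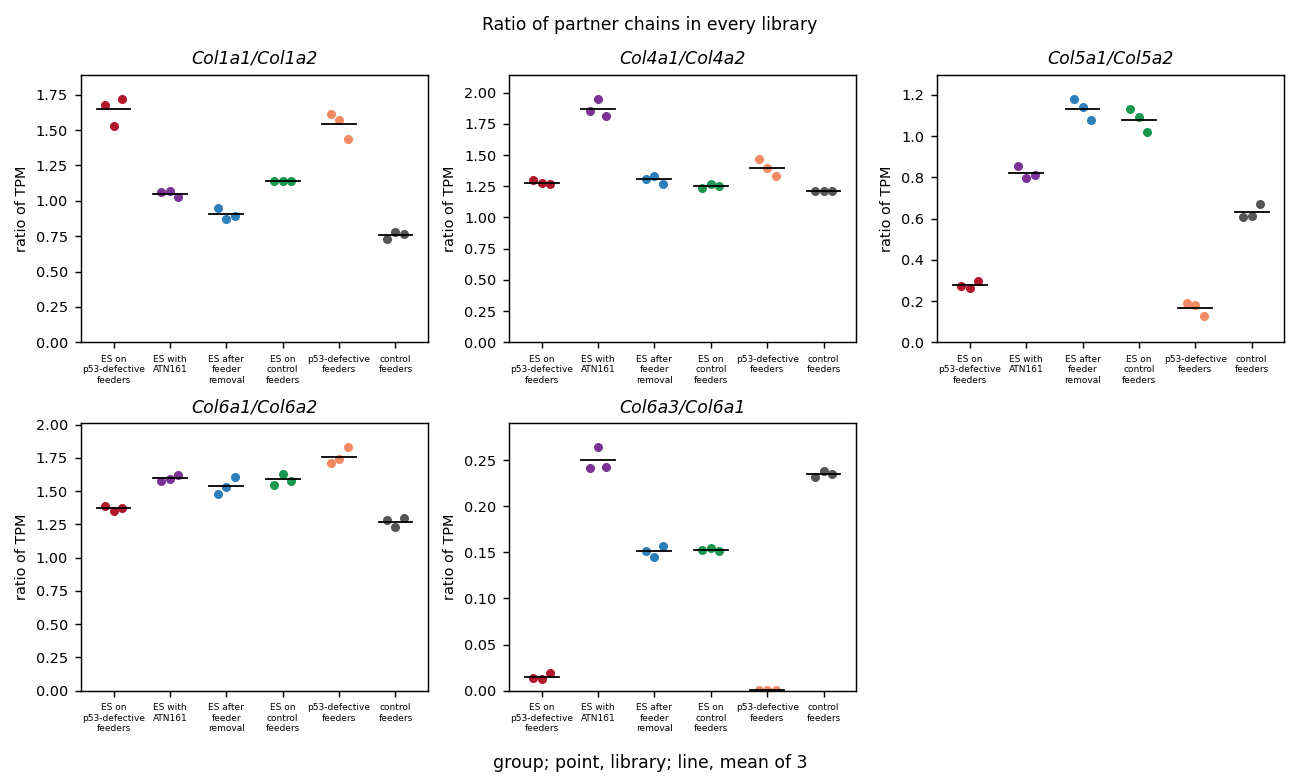
Ratio of the TPM of partner chains in each library (points) with the mean of 3 (line), by group, on linear axes that start at 0. Col6a3 to Col6a1 is near 0 with p53-defective feeders alone and at 0.235 in control feeders, and Col5a1 to Col5a2 is lowest in both cultures with p53-defective feeders.

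The feeders alone were compared first, since they show what the p53 label goes with before ES cells are added. Most chain genes were lower in the p53-defective feeders. Of 42 tested, 35 were lower (83.3%), 4 were higher (9.52%) and 3 did not pass the test, against 38.4% lower and 35.9% higher of all 15389 genes tested. The median log2 fold change of the tested chains was -2.60, or -2.38 with chains at 0 counts set at their bound, beside -0.01 for all genes. Lower were 10 of 11 fibrillar chains, all 6 beaded filament chains, 6 of 8 tested fibril-associated chains, all 3 short-chain network chains, both multiplexin chains and 3 of 4 transmembrane chains. Of 5 tested basement membrane chains, 2 were lower and 2 higher. Fibroblast markers differed in the same direction, with 12 of 12 lower, and of the 10 mesothelial markers 8 were higher and 2 lower, and their part in the collagen differences was not tested.

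Among fibrillar chains, Col1a1 (Entrez 12842, chromosome 11 from 94936224 to 94953042 on GRCm38) had 2200, 2430 and 3170 CPM in p53-defective feeders, against 8030, 9360 and 9890 CPM in control feeders. Its partner Col1a2 (Entrez 12843, chromosome 6 from 4505618 to 4541543) had 1200, 1350 and 1930 CPM, against 9580, 10500 and 11300. All p53-defective libraries lay below all control libraries for both genes. The log2 fold change was -1.81 ± 0.15 for Col1a1 (SE, edgeR adjusted p = 2.32e-10) and -2.81 ± 0.15 for Col1a2 (adjusted p = 2.51e-13). Col3a1, the homotrimeric chain of type III fibrils (chromosome 1 from 45311538 to 45349706), had 517, 588 and 787 CPM, against 4110, 4570 and 5430 CPM, a log2 fold change of -2.90 ± 0.14 (adjusted p = 4.8e-14). Col5a1 and Col5a2 are chains of type V collagen, which takes part in starting fibrils. Col5a1 had 393, 421 and 410 CPM in p53-defective feeders, against 1980, 2120 and 2310 in control feeders (log2 fold change -2.39 ± 0.12, adjusted p = 4.78e-14). Col5a2 had 1600, 1790 and 2460 CPM, against 2540, 2680 and 2690, the smallest fall among the chains called (-0.43 ± 0.12, adjusted p = 0.00306). The Col5a2 call was lost without p53-defective feeder replicate 1 (-0.24, adjusted p = 0.0938) or replicate 2 (-0.30, adjusted p = 0.0595). The exception among fibrillar chains was Col11a2, a chain of cartilage fibrils, with 14.1, 13.6 and 11.8 CPM against 8.94, 10.2 and 8.11 (0.54 ± 0.13, adjusted p = 0.000599). With curated transcripts alone Col11a2 was not called (1.32, adjusted p = 0.235).

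Some of the deepest falls were among beaded filament and fibril-associated chains. Col6a3, the long α3 chain of type VI filaments (Entrez 12835, chromosome 1 from 90766860 to 90844001), had 0.635, 0.751 and 1.41 CPM in p53-defective feeders, against 716, 786 and 849 CPM in control feeders. Its log2 fold change was -9.71 ± 0.25 (adjusted p = 1.08e-17). Its trimer partners fell as well. Col6a1 had 616, 674 and 1040 CPM against 1310, 1410 and 1540 (-0.87 ± 0.13, adjusted p = 5.14e-06), and Col6a2 had 347, 375 and 553 CPM against 965, 1090 and 1130 (-1.32 ± 0.12, adjusted p = 2.05e-09). Col12a1, a fibril-associated chain that coats type I fibrils (Entrez 12816, chromosome 9 from 79598987 to 79721141), had 14.5, 23.4 and 19.5 CPM, against 2100, 2190 and 2330 CPM, a log2 fold change of -6.84 ± 0.22 (adjusted p = 2.14e-15). Neither gene had a p53-defective library near the control range. Col10a1, best known from hypertrophic cartilage, had no count in the p53-defective feeders, against 13.0, 13.4 and 17.5 CPM in control feeders, and was at least 240-fold lower (floor of 3 counts over the group). Col10a1 overlaps Nt5dc1, and since strand is not stated the reads of the pair cannot be told apart. Col25a1, a transmembrane chain, also had no count, against 7.92, 7.75 and 9.79 CPM, and was at least 140-fold lower. Col26a1, Col9a1 and Col13a1 had no count either and were at least 81.0, 43.3 and 4.10-fold lower. Col24a1, a fibrillar chain, had 2 counts over the 3 p53-defective libraries and 487 over the 3 control libraries. Col7a1, the chain of the anchoring fibrils under epithelia, had 4.63, 5.08 and 4.84 CPM, against 117, 143 and 165 CPM (-4.86 ± 0.12, adjusted p = 1.9e-19).

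Basement membrane chains split by gene pair. Col4a1 had 479, 500 and 639 CPM in p53-defective feeders, against 1530, 1610 and 1600 CPM in control feeders (log2 fold change -1.55 ± 0.14, adjusted p = 1.03e-09). Col4a2, whose gene overlaps that of Col4a1 by 85 bases on chromosome 8, had 316, 348 and 468 CPM, against 1240, 1300 and 1290 CPM (-1.76 ± 0.15, adjusted p = 2.24e-09). Both fell, with groups that did not overlap. Col4a6 (Entrez 94216, chromosome X from 141165403 to 141474095), a chain of type IV networks in smooth muscle and some epithelia, had 160, 174 and 233 CPM, against 7.53, 8.27 and 11.5 CPM, a log2 fold change of 4.38 ± 0.19 (adjusted p = 5.82e-14). Its head-to-head neighbour Col4a5 (Entrez 12830, chromosome X from 141475370 to 141689236) had 448, 461 and 577 CPM, against 178, 188 and 212 CPM (1.36 ± 0.11, adjusted p = 1.54e-10). Both genes of this pair rose, with groups that did not overlap. Col4a4 was not called (0.15 ± 0.35, adjusted p = 0.715), and Col17a1 of hemidesmosomes (-0.49 ± 0.48, adjusted p = 0.438) and Col20a1 (-0.03 ± 0.11, adjusted p = 0.852) were not called either. Col18a1 (Entrez 12822, chromosome 10 from 77052178 to 77166530) had 47.7, 53.8 and 55.4 CPM, against 106, 119 and 115 CPM (-1.11 ± 0.10, adjusted p = 9.44e-10). Col9a3, a chain that sits on cartilage fibrils, was the other higher gene, at 5.27, 4.39 and 3.74 CPM against 1.13, 1.85 and 1.22 CPM (1.67 ± 0.20, adjusted p = 8.7e-08). Col9a3 overlaps Tcfl5, and the same limit holds for it.

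**Figure D3:**
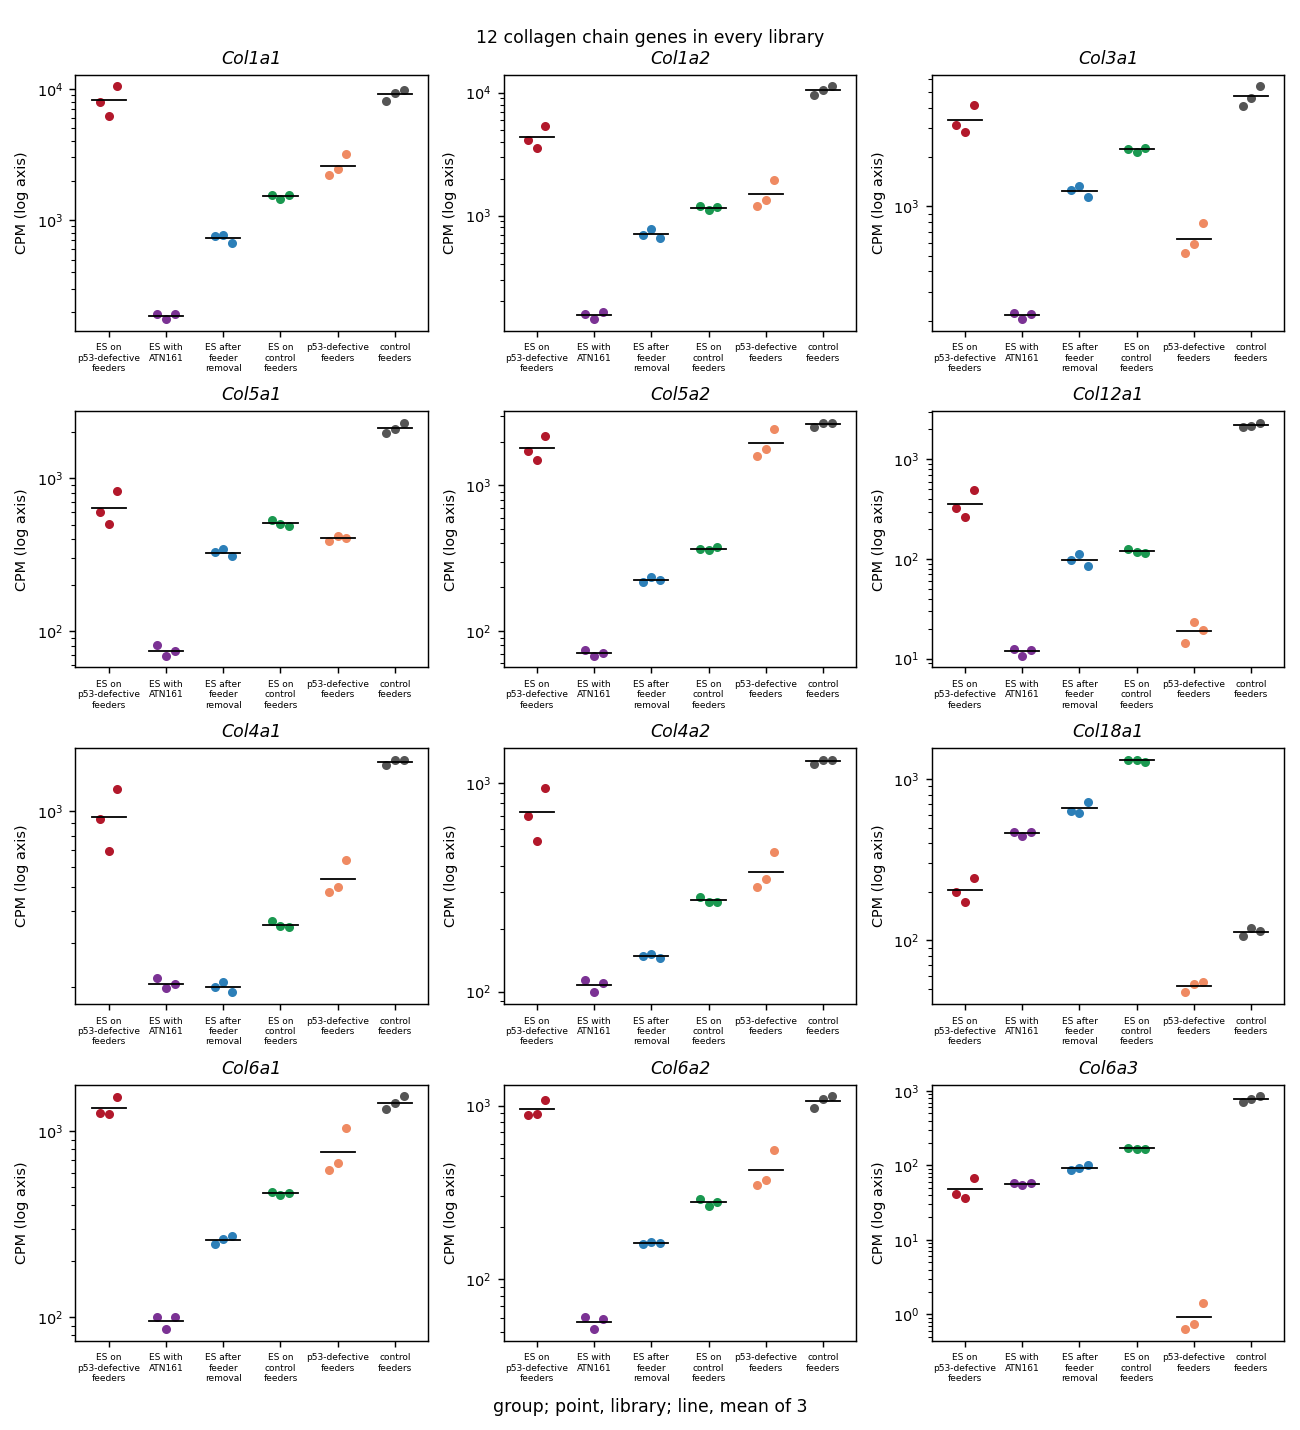
TMM-scaled CPM (log axis) of 12 chain genes in each library (points) with the mean of 3 (line), by group. All but Col18a1 have their highest mean in control feeders, Col18a1 is highest in ES cells on control feeders at 1280 to 1320 CPM, and Col6a3 and Col12a1 are far lower in p53-defective feeders than in control feeders.

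In the co-cultures, which show what the p53 label of the feeders goes with once ES cells are present, most fibrillar and basement membrane chains were higher with p53-defective feeders. Of 42 chain genes tested, 19 were higher, 17 lower and 6 did not pass the test, against 36.6% higher and 46.7% lower of all genes. The tested chains had a median log2 fold change of -0.10, beside -0.18 for all genes. Higher were 8 of 11 fibrillar chains and 4 of 5 tested basement membrane chains, while 4 of 6 beaded filament chains and 3 of 4 transmembrane chains were lower. ES-specific genes were 432 genes chosen on both groups of ES cells labelled as without feeders. They had at least 10 CPM there and at least 8-fold the level of both feeder groups. Relative to their level after feeder removal, they stood at 7.86 ± 0.698% on p53-defective feeders and 80.2 ± 0.314% on control feeders. These values are medians over genes, as mean ± SD of 3 libraries. Values set against the groups used for the choice, here and below, are not independent of it. Scaled on the ES-specific genes, the median log2 fold change of all genes was 3.20 and that of the tested chains 3.30. Of the 42 chains 35 were then higher and 1 lower, beside 13504 higher and 411 lower of all 15389 genes tested. That scaling moves all genes by about the same amount. With it 14 of the 17 lower chains turned to positive values, 11 of them past the threshold. These falls hold only relative to all RNA, and the size of the rises depends on the scaling as well. The 14 were Col6a3 (1.60), Col18a1 (0.73), Col10a1 (0.28), Col2a1 (0.64), Col22a1 (0.77), Col7a1 (1.43), Col9a2 (1.3), Col9a3 (0.84), Col14a1 (1.95), Col13a1 (1.94), Col26a1 (2.24), Col6a5 (1.02), Col6a6 (0.29) and Col23a1 (0.24). Col6a4, Col24a1 and Col25a1 kept a negative value.

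Type I chains were the most abundant of those that rose. Col1a1 had 7910, 6260 and 10500 CPM in ES cells on p53-defective feeders, against 1560, 1450 and 1540 CPM in ES cells on control feeders (log2 fold change 2.44 ± 0.15, adjusted p = 1.42e-12). Col1a2 had 4100, 3570 and 5350 CPM, against 1200, 1110 and 1180 CPM (1.90 ± 0.15, adjusted p = 7.54e-11). Every library on p53-defective feeders lay above every one on control feeders for both partners. Col5a2 had 1730, 1490 and 2180 CPM, against 366, 362 and 376 CPM (2.29 ± 0.13, adjusted p = 1.97e-13), and Col3a1 had 3140, 2860 and 4150 CPM, against 2250, 2160 and 2290 CPM (0.60 ± 0.14, adjusted p = 0.000343). Col5a1 had 606, 502 and 828 CPM, against 532, 507 and 491 CPM, with overlapping groups (0.34 ± 0.12, adjusted p = 0.0107). The Col5a1 call was lost with curated transcripts alone (0.17, adjusted p = 0.198). Col12a1 had 324, 266 and 494 CPM, against 127, 117 and 115 CPM (1.59 ± 0.17, adjusted p = 8.87e-08).

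The X-linked pair and the common type IV pair moved the same way here. Col4a6 had 159, 133 and 209 CPM on p53-defective feeders, against 1.57, 1.76 and 1.12 CPM on control feeders, a log2 fold change of 6.81 ± 0.24 (adjusted p = 1.34e-15). Col4a5 had 428, 364 and 537 CPM, against 73.1, 66.9 and 67.5 CPM (2.68 ± 0.12, adjusted p = 1.78e-15). Col4a1 had 936, 693 and 1230 CPM, against 366, 349 and 347 CPM (1.43 ± 0.14, adjusted p = 2.74e-09), and Col4a2 had 699, 528 and 948 CPM, against 286, 268 and 269 CPM (1.4 ± 0.15, adjusted p = 4.49e-08). All 4 genes had groups that did not overlap. Col8a2, a short chain of the corneal Descemet membrane, had 42.4, 46.9 and 43.6 CPM, against 1.08, 0.953 and 1.12 CPM (5.39 ± 0.25, adjusted p = 1.35e-14). Col15a1, the relative of Col18a1, had 11.5, 11.5 and 14.4 CPM, against 1.57, 1.62 and 0.778 CPM (3.23 ± 0.24, adjusted p = 2.55e-11). Mesothelial markers rose with these genes, 10 of 10, and their part in the collagen differences was not tested.

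Relative to all RNA, type VI chains went apart. Col6a1 had 1260, 1230 and 1520 CPM on p53-defective feeders, against 472, 456 and 467 CPM on control feeders (log2 fold change 1.53 ± 0.14, adjusted p = 9.91e-10). Col6a2 had 885, 888 and 1080 CPM, against 290, 266 and 280 CPM (1.77 ± 0.13, adjusted p = 1.14e-11). Col6a3 was lower, at 41.2, 36.1 and 68.6 CPM against 171, 167 and 168 CPM (-1.79 ± 0.16, adjusted p = 1.53e-09). Col6a4, a chain related to Col6a3, had 0.424, 0.374 and 0.356 CPM, against 6.58, 5.24 and 6.76 CPM (-3.98 ± 0.29, adjusted p = 1.5e-11). Col18a1 had 200, 174 and 245 CPM, against 1320, 1310 and 1280 CPM (-2.66 ± 0.10, adjusted p = 1.57e-16). The multiplexins thus moved in opposite directions relative to all RNA, while both were positive when scaled on ES-specific genes (Col15a1 6.61, Col18a1 0.73). Col10a1, Col2a1, the main chain of cartilage fibrils, and Col22a1 of tissue junctions were also among the largest falls at 5 CPM or more, at -3.10 ± 0.22, -2.74 ± 0.14 and -2.61 ± 0.18 (adjusted p = 4.58e-11, 5.79e-14 and 6.35e-12). Their means were 0.849, 1.54 and 1.87 CPM on p53-defective feeders, against 7.33, 10.3 and 11.5 CPM on control feeders.

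**Figure D4:**
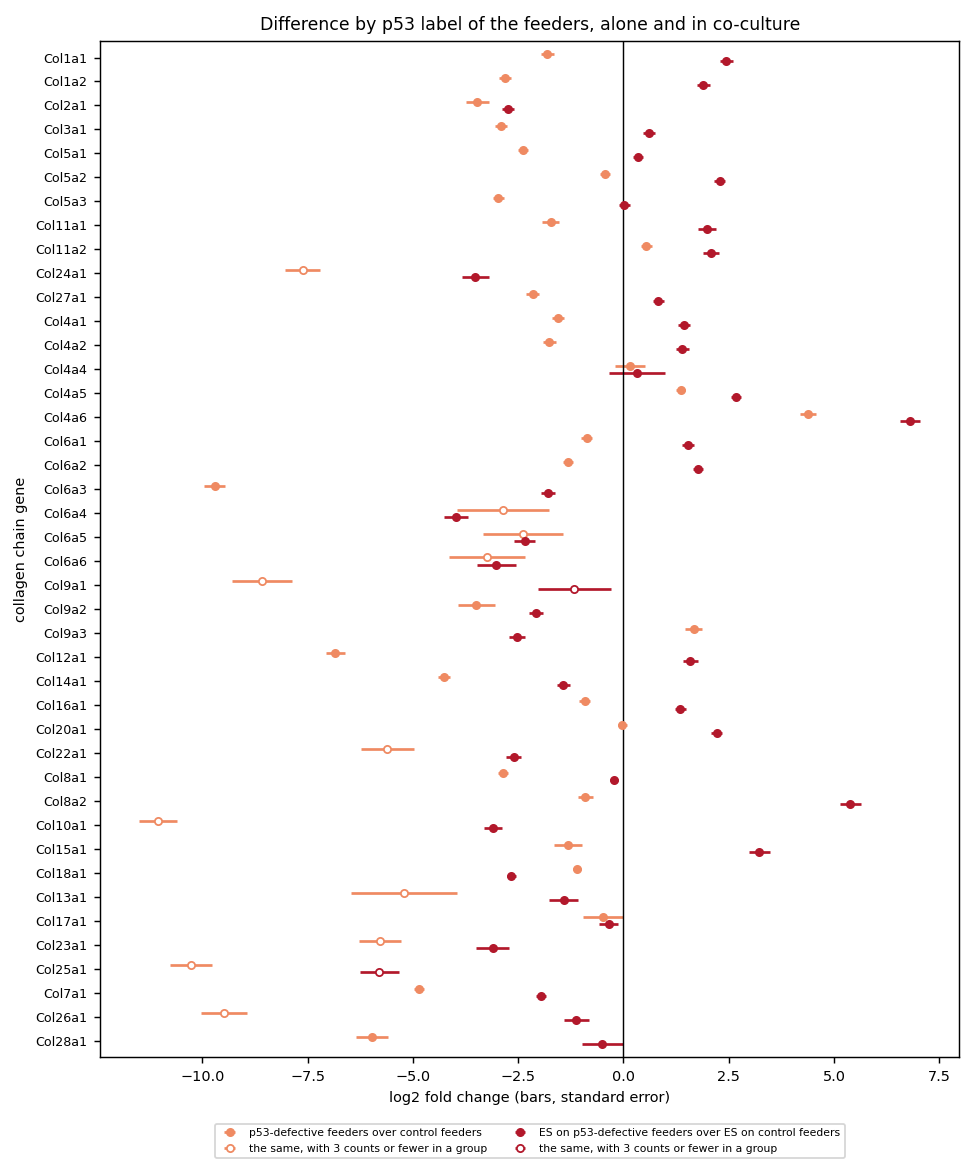
Log2 fold change (x axis, bars show the standard error) of the 42 tested chain genes for ES cells on p53-defective feeders over ES cells on control feeders (dark) and for p53-defective feeders over control feeders (light). Open points have 3 counts or fewer in a group, so that their position depends on the prior count. Col1a1 lies at 2.44 in co-culture and at -1.81 in the feeders alone, and Col4a6 is above 0 in both.

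The difference between the co-culture effect and the feeder effect was tested as an interaction, a contrast of these 4 groups in the fit of all 18 libraries. Of 42 chain genes, 34 had a higher log2 fold change in co-culture than in the feeders alone and 2 a lower one, against 38.8% and 34.8% of all genes, with a median difference of 2.95 beside 0.04. The type I chains Col1a1 and Col1a2 differed by 4.25 ± 0.21 and 4.71 ± 0.21 (adjusted p = 6.65e-14 and 1.46e-14). Col3a1 differed by 3.50 ± 0.20, and Col5a1 and Col5a2 both by 2.73. Col12a1 and Col6a3 had means of 19.1 and 0.932 CPM in the p53-defective feeders. Their differences were 8.44 ± 0.28 and 7.91 ± 0.30 (adjusted p = 4.09e-15 and 7.85e-15). The type IV chains Col4a1 and Col4a2 stood at 2.99 ± 0.19 and 3.16 ± 0.22, the type VI chains Col6a1 and Col6a2 at 2.39 ± 0.19 and 3.09 ± 0.18, and Col8a2 at 6.30 ± 0.31. Col28a1, with 4 counts in the p53-defective feeders in all, stood at 5.47 ± 0.78. Col18a1 and Col9a3 were the chains with a lower value in co-culture, at -1.55 ± 0.14 and -4.20 ± 0.28. Scaling on ES-specific genes was not applied to the interaction, so its signs and sizes are relative to all RNA. In the comparison of the co-cultures that scaling gave positive values for both, 0.73 for Col18a1 and 0.84 for Col9a3. For Col10a1, which had no count in the p53-defective feeders, no difference is given.

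Relative to the p53-defective feeders alone, the co-culture on them had more RNA of most chain genes. Of 42 tested, 30 were higher, 4 lower and 8 did not pass, against 46.7% higher and 33.0% lower of all genes, with a median log2 fold change of 1.80 beside 0.27. With curated transcripts alone 2 were lower. Col1a1 rose by 1.66 ± 0.14 (adjusted p = 7.89e-10), Col1a2 by 1.54 ± 0.14 (adjusted p = 2.68e-09) and Col3a1 by 2.42 ± 0.14 (adjusted p = 9.78e-13). Col5a1 rose by 0.66 ± 0.12, and Col5a2 did not pass the test (-0.12 ± 0.12, adjusted p = 0.391). Col6a3 rose by 5.70 ± 0.26 to a mean of 48.6 CPM, against 0.932 CPM in the feeders, and Col12a1 by 4.23 ± 0.20 to 361 CPM, against 19.1 CPM (adjusted p = 1.55e-13 and 8.26e-13). Col4a1, Col4a2, Col6a1 and Col6a2 rose by 0.82 ± 0.13, 0.94 ± 0.15, 0.78 ± 0.13 and 1.16 ± 0.12, and Col18a1 by 1.98 ± 0.10. Col15a1 and Col8a1, a short chain made by vessel walls, rose by 3.64 ± 0.27 and 2.02 ± 0.11. Col11a2 (-1.65 ± 0.14), Col9a3 (-1.89 ± 0.21), Col20a1 (-0.48 ± 0.11) and Col4a4 (-2.31 ± 0.48) were lower. The X-linked pair did not pass, with Col4a5 at -0.16 ± 0.11 (adjusted p = 0.174) and Col4a6 at -0.18 ± 0.15 (adjusted p = 0.284). The 12 fibroblast markers were all higher in the co-culture, and their part in the collagen differences was not tested.

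The co-culture on p53-defective feeders was also set beside its feeders and both groups of ES cells labelled as without feeders. Neither of these 2 groups had been grown on p53-defective feeders. Their fibroblast markers summed to 922 to 1030 CPM after removal and 201 to 235 CPM with ATN161, so their levels need not be those of ES cells alone. Of 42 chain genes tested, with no limit on level, 14 (33.3%) had all 3 co-culture libraries above each library of the p53-defective feeders, of the ES cells with ATN161 and of the ES cells after feeder removal, against 20.9% of the 15389 genes tested. ES cells taken from p53-defective feeders were not analysed here, so the levels in the ES part of this co-culture are not known. Col1a1 was at 6260 to 10500 CPM, against at most 3170 CPM in the other 3 groups, and Col1a2 at 3570 to 5350, against at most 1930 CPM. For Col3a1 the co-culture had 2860 to 4150 CPM and the others at most 1330 CPM, in the ES cells after feeder removal. Col12a1 had 266 to 494 CPM, against at most 112 CPM, and Col8a2 had 42.4 to 46.9 CPM, against at most 24.2 CPM. The remaining 9 of the 14 were Col4a1, Col4a2, Col5a1, Col5a3, Col6a1, Col6a2, Col15a1, Col16a1 and Col27a1. In the co-culture on control feeders, 4 of 42 chain genes (9.52%) stood above the control feeders and both groups of ES cells without feeders, against 4.87% of all genes tested. These were Col18a1, at 1280 to 1320 CPM against at most 723 CPM, Col22a1, Col9a3 and Col6a5.

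**Figure D5:**
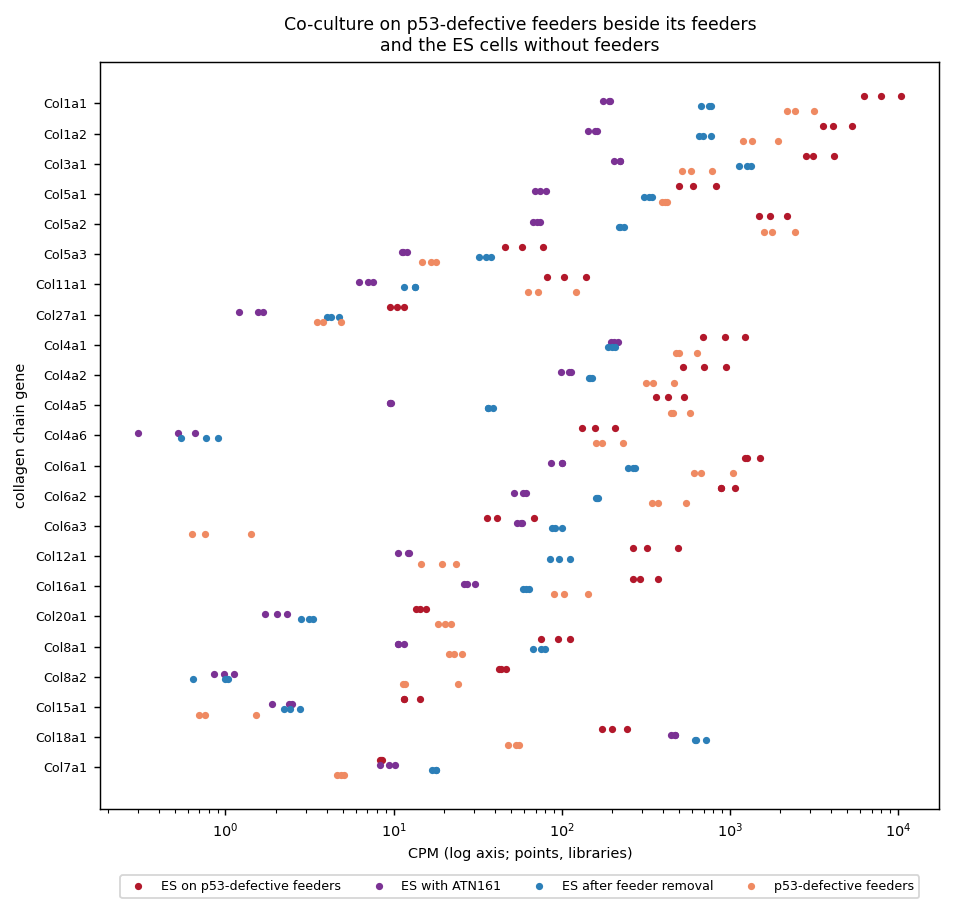
TMM-scaled CPM (log axis) of the 23 chain genes with a mean of at least 5 CPM in ES cells on p53-defective feeders, with a point for each library of that co-culture, of ES cells with ATN161, of ES cells after feeder removal and of p53-defective feeders. For Col1a1, Col1a2, Col3a1, Col12a1 and Col8a2 the co-culture points lie right of all others, and for Col4a5, Col4a6 and Col5a2 they overlap the feeders.

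The co-culture on control feeders was compared with control feeders alone, a comparison of a mixed library with one of feeders only. Of 42 chain genes, 10 were higher and 32 lower, against 44.3% and 39.9% of all genes, with a median log2 fold change of -1.65 beside 0.08. With the filter of 5 CPM, which tests fewer chains, 6 were higher. Lower too were 12 of 12 fibroblast markers (median log2 fold change -1.71) and 9 of 9 tested macrophage markers (-5.55), and their part in the collagen differences was not tested. Type I chains Col1a1 and Col1a2 stood at -2.58 ± 0.15 and -3.17 ± 0.15 (adjusted p = 5.06e-13 and 2.38e-14), and Col3a1 at -1.07 ± 0.14 (adjusted p = 2.05e-07). Col5a1, Col5a2, Col4a1 and Col4a2 stood between -2.84 ± 0.13 and -2.07 ± 0.12, and Col6a1, Col6a2 and Col6a3 between -2.21 ± 0.15 and -1.61 ± 0.14. Col8a2 (-4.81 ± 0.25), Col12a1 (-4.20 ± 0.19), Col28a1 (-3.74 ± 0.27), Col11a1 (-3.39 ± 0.22) and Col11a2 (-3.19 ± 0.17) fell most among the chains at 5 CPM or more. At that level the chains that rose most were Col6a4 (4.97 ± 0.33), Col18a1 (3.53 ± 0.10), Col22a1 (3.12 ± 0.19), Col9a2 (2.72 ± 0.18) and Col9a3 (2.31 ± 0.18). Col18a1 averaged 1310 ± 20.4 CPM in the co-culture and 113 ± 7.0 CPM in the feeders (SD, n = 3).

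ES cells after feeder removal were compared with control feeders alone. The 12 fibroblast markers summed to 922 to 1030 CPM after removal, near the 945 to 1010 CPM of the co-culture on control feeders, against 8410 to 10400 CPM in control feeders, so the libraries after removal were not free of fibroblast marker RNA. Of 42 chain genes, 10 were higher, 31 lower and Col15a1 did not pass the test (-0.01 ± 0.27, adjusted p = 0.971), against 45.1% higher and 40.8% lower of all genes. With the filter of 5 CPM, which tests fewer chains, 6 were higher. Lower too were 12 of 12 fibroblast markers (median log2 fold change -2.46) and 9 of 9 tested macrophage markers (-5.05), and their part in the collagen differences was not tested. Col6a4, Col9a2, Col18a1, Col22a1 and Col2a1 rose most among those at 5 CPM or more, by 5.10 ± 0.32, 3.11 ± 0.18, 2.54 ± 0.10, 2.52 ± 0.20 and 1.71 ± 0.14. Col6a4 had 7.68, 6.35 and 6.34 CPM after removal, against 0.0566, 0.462 and 0.0579 CPM in the feeders, and Col9a2 had 12.8, 12.5 and 12 CPM, against 1.19, 1.73 and 1.39 CPM. Neither gene had overlapping groups. Col1a1, Col1a2, Col5a2 and Col12a1 stood at -3.64 ± 0.16, -3.88 ± 0.16, -3.55 ± 0.14 and -4.49 ± 0.19. Col3a1, Col5a1, Col6a1, Col6a2, Col6a3, Col4a1 and Col4a2 lay between -3.11 ± 0.16 and -1.92 ± 0.14. Col8a2 (-5.05 ± 0.26), Col11a1 (-4.47 ± 0.24) and Col11a2 (-3.79 ± 0.19) were among the largest falls at 5 CPM or more.

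Feeder removal went with less RNA of most chains in the ES cultures. Relative to ES cells on control feeders, 27 of 42 chain genes were lower, 3 higher and 12 did not pass, against 26.5% lower and 25.5% higher of all genes, and the median log2 fold change was -0.66 beside -0.01. The count of higher chains was 1 without after-removal replicate 2 and 0 with curated transcripts alone. Col1a1 had 752, 770 and 674 CPM after removal, against 1560, 1450 and 1540 CPM on control feeders (-1.05 ± 0.14, adjusted p = 3.46e-06). Col3a1 had 1260, 1330 and 1140 CPM, against 2250, 2160 and 2290 CPM (-0.85 ± 0.14, adjusted p = 2.31e-05), and Col18a1 had 632, 620 and 723 CPM, against 1320, 1310 and 1280 CPM (-0.99 ± 0.09, adjusted p = 2.52e-08). These 3 genes had groups that did not overlap, as had the other chains called. Scaled on ES-specific genes, 32 chains were lower and 2 higher, beside 6608 lower and 1463 higher of all genes, whose median shifted to -0.26. The falls of Col1a2, Col5a1, Col5a2, Col4a1, Col4a2, Col6a1, Col6a2 and Col6a3 were close to each other, from -0.89 ± 0.15 to -0.64 ± 0.12. Col12a1 did not pass (-0.29 ± 0.17, adjusted p = 0.172), with 96.7, 112 and 85.7 CPM after removal, against 127, 117 and 115 CPM, although a fit of these groups alone (adjusted p = 0.0124) and scaling on ES-specific genes (-0.55, adjusted p = 0.00758) called it. Col10a1 (-1.86 ± 0.18), Col11a1 (-1.09 ± 0.23) and Col16a1 (-0.98 ± 0.14) were also among the largest falls at 5 CPM or more. The only rise at 5 CPM or more was Col9a2 (0.39 ± 0.14, adjusted p = 0.0207), which was not called without replicate 1 or 2 of the co-culture on control feeders or any one replicate after removal (0.28 to 0.36), with curated transcripts alone (0.35) or when scaled on ES-specific genes (0.13). Of the 12 fibroblast markers, 5 were lower and 3 higher, with a median log2 fold change of -0.17.

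ES cells with ATN161 also had less RNA of most chains than ES cells on control feeders. Relative to ES cells on control feeders, 29 of 42 chain genes were lower, 4 higher and 9 did not pass, against 28.0% lower and 33.6% higher of all genes, and the median log2 fold change was -1.54 beside 0.07. The count of higher chains was 2 without replicate 1 or 3 of the co-culture on control feeders, and 1 with curated transcripts alone or with the filter of 5 CPM. This comparison and the one with feeder removal share the libraries on control feeders. Col1a1 had 193, 176 and 191 CPM with ATN161, against 1560, 1450 and 1540 CPM on control feeders (-3.02 ± 0.15, adjusted p = 4.71e-13). Col1a2 had 159, 144 and 163 CPM, against 1200, 1110 and 1180 CPM (-2.91 ± 0.15, adjusted p = 8.89e-13). Col3a1 had 222, 205 and 221 CPM, against 2250, 2160 and 2290 CPM (-3.37 ± 0.15, adjusted p = 3.6e-14). All libraries with ATN161 lay below all those on control feeders for these 3 fibrillar chains. Col12a1 fell to 12.4, 10.7 and 12.2 CPM with ATN161, against 127, 117 and 115 CPM (-3.35 ± 0.20, adjusted p = 8.95e-11), and Col8a1 to 10.6, 11.6 and 10.7 CPM, against 116, 104 and 107 CPM (-3.31 ± 0.12, adjusted p = 8.51e-16). Col5a1 and Col5a2 stood at -2.77 ± 0.13 and -2.37 ± 0.13, and Col6a1, Col6a2 and Col6a3 at -2.27 ± 0.14, -2.28 ± 0.13 and -1.58 ± 0.15. Smaller falls were those of Col18a1 (-1.5 ± 0.10), Col4a2 (-1.35 ± 0.15) and Col4a1 (-0.78 ± 0.14). Col10a1 fell by 3.73 on the log2 scale, to a mean of 0.545 CPM, against 7.33 CPM. Scaled on ES-specific genes, 34 chains were lower and 1 higher, beside 7729 lower and 711 higher of all genes, whose median shifted to -0.36. The 12 fibroblast markers were all lower, and their part in the collagen differences was not tested. Col9a2 was the only chain at 5 CPM or more that rose, at 20.1, 20.8 and 21.6 CPM against 9.53, 8.81 and 10.2 CPM (1.13 ± 0.13, adjusted p = 1.55e-07).

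Between the groups labelled as ES cells alone, ATN161 set against feeder removal went with lower fibrillar chains. Of 42 chain genes, 25 were lower, 4 higher and 13 did not pass, against 26.8% lower and 28.6% higher of all genes, with a median log2 fold change of -0.84 beside 0.03. Lower were 10 of 11 fibrillar chains, with Col1a1 at -1.97 ± 0.15, Col1a2 at -2.19 ± 0.15, Col3a1 at -2.53 ± 0.14, Col5a1 at -2.13 ± 0.12 and Col5a2 at -1.67 ± 0.13 (adjusted p = 5.7e-10, 1.22e-10, 5.06e-12, 5.07e-12 and 6.65e-10). Col12a1 and Col8a1 fell most of those at 5 CPM or more, by 3.06 and 2.76 on the log2 scale (adjusted p = 6.37e-10 and 3.55e-14). Of the common type IV pair, Col4a1 did not pass the test. It had 216, 198 and 205 CPM with ATN161, against 199, 208 and 190 CPM after removal, with overlapping groups (0.05 ± 0.14, adjusted p = 0.755), and Col4a2 had 114, 99.1 and 110 CPM, against 148, 152 and 145 CPM (-0.46 ± 0.15, adjusted p = 0.0157). The Col4a2 call was lost without ATN161 replicate 2 (-0.40, adjusted p = 0.0624). Col6a1, Col6a2 and Col6a3 stood at -1.45 ± 0.14, -1.5 ± 0.13 and -0.72 ± 0.15, of which Col6a3 was not called with curated transcripts alone (-0.51, adjusted p = 0.132), and Col18a1 had 471, 445 and 470 CPM, against 632, 620 and 723 CPM after removal (-0.51 ± 0.09, adjusted p = 9.76e-05). The rises at 5 CPM or more were those of Col9a2 (0.74 ± 0.13), Col22a1 (0.48 ± 0.15) and Col2a1 (0.37 ± 0.11), chains of cartilage or tissue junctions (adjusted p = 4.77e-05, 0.0087 and 0.00864). Col22a1 and Col2a1 were each not called without a single library, after-removal replicate 1 (0.40, adjusted p = 0.0579) and ATN161 replicate 2 (0.30, adjusted p = 0.057). Both calls were also lost when scaled on ES-specific genes (Col22a1 0.30, adjusted p = 0.0892, and Col2a1 0.20, adjusted p = 0.189) and with curated transcripts alone (0.44, adjusted p = 0.142, and 0.29, adjusted p = 0.155). Scaled on ES-specific genes, 25 chains were lower and 2 higher, beside 5239 lower and 2079 higher of all genes. The summed fibroblast markers were 201 to 235 CPM with ATN161 and 922 to 1030 after removal, with 11 of 12 lower, and their part in the collagen differences was not tested.

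Genes that process, cross-link, bind or degrade collagen were also counted. In the feeders alone, 13 of 19 genes of chain modification and folding were lower and 5 higher with the p53-defective label, among them the lysyl hydroxylase gene Plod1 at 83.7 CPM against 282 CPM (log2 fold change -1.75 ± 0.09). Over all genes 38.4% were lower and 35.9% higher in this comparison. All 5 lysyl oxidase genes, which cross-link collagen, were lower, with Lox at 761 CPM against 3120 CPM (-2.03 ± 0.14). Of 13 genes of secretion and procollagen processing, 7 were lower and 4 higher, with the propeptide proteases Bmp1 (-2.46 ± 0.09) and Adamts2 (-3.11 ± 0.13) among the lower. Of 8 collagen receptors 7 were lower and 1 higher, with Itga11, the integrin chain of fibroblasts for fibrillar collagen, at 1.68 CPM against 155 CPM and Mrc2, an uptake receptor, at -2.55 ± 0.11. Of 6 degradation genes tested, 4 were lower and 1 higher, with the lysosomal protease Ctsk (-8.23 ± 0.15) and the membrane protease Mmp14 (-4.15 ± 0.11) among the lower.

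In the co-cultures most genes of 4 of these 5 lists were higher with p53-defective feeders, beside 36.6% higher and 46.7% lower of all genes. Of the 19 modification and folding genes 16 were higher and 1 lower, with the prolyl hydroxylase genes P4ha2 at 426 CPM against 74.7 CPM (2.51 ± 0.08) and P4hb at 2080 against 638 CPM (1.70 ± 0.07), and the procollagen chaperone Serpinh1 at 1930 against 577 CPM (1.74 ± 0.07). Secretion and processing had 8 higher and 4 lower of 13, with Creb3l1, a regulator of collagen secretion, at 2.11 ± 0.10. Cross-linking had 4 higher and 1 lower (Loxl3, -1.03 ± 0.10), and the receptors 5 higher and 2 lower, with the kinase receptor Ddr1 at 2.68 ± 0.17. Degradation had 2 higher and 4 lower of 6, with Ctsk at -3.69 ± 0.14. With scaling on ES-specific genes the median of all genes rises to 3.20 here, so that these directions too are relative to all RNA. For the comparisons that follow, the shares of all genes are those given with the chain counts. Against p53-defective feeders alone, the same co-culture had 16, 8, 4, 5 and 4 genes higher and 2, 2, 1, 2 and 1 lower in the lists of modification, secretion, cross-linking, receptors and degradation. With ATN161 against feeder removal, 2, 0, 0, 0 and 1 were higher and 10, 9, 5, 5 and 4 lower in the same order, with Serpinh1 at 204 against 358 CPM and Lox at 39.0 against 244 CPM. Against ES cells on control feeders, the counts in that order were 0, 1, 0, 0 and 0 higher and 15, 8, 5, 7 and 5 lower with ATN161, and 0, 2, 0, 0 and 1 higher and 12, 7, 5, 5 and 3 lower after feeder removal. Against control feeders, they were 3, 3, 0, 1 and 1 higher and 16, 10, 5, 7 and 5 lower in the co-culture on them, and 2, 3, 0, 0 and 1 higher and 16, 10, 5, 7 and 5 lower after feeder removal. The co-culture effect of the p53 label exceeded the feeder effect for 16, 9, 5, 6 and 5 genes of the lists and fell below it for 3, 3, 0, 0 and 0.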

How the data were processed

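RNA was extracted with Trizol and libraries were made with the Illumina TruSeq mRNA kit, per the labels' protocols. Tools listed by the submitters' processing notes, with no role, are StringTie 1.3.3b, HISAT2 2.1.0, DESeq2 1.2.10 and SAMtools 1.4, and the builds listed are mm10 and GRCm38. Strandedness is not given in the sources used here. The authors deposited 1 table of 75416 RefSeq transcripts with expected counts, FPKM and TPM per library. The estimated counts of the deposited table were summed per gene and rounded to whole counts, and 89.3% of the gene sums were whole within 0.05. The deposited TPM values were summed per gene for levels between genes, and the deposited FPKM values, rescaled to a common total, served as an alternative.

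All 18 libraries were fitted together with edgeR 4.0.16 (quasi-likelihood test, TMM scaling, R 4.3.3) after filterByExpr kept 15389 genes and removed 4241. Adjusted p-values (Benjamini-Hochberg) cover all 15389 genes, with calls below 0.05. CPM levels are TMM-scaled, ± is the standard error for fold changes and the SD of 3 libraries for levels. Counting floors are 3 counts over a group and cover counting error only. Values are given for 12 fixed chains and for up to 5 largest rises and falls among called chains without overlap at 5 CPM or more, and 3 pathway genes per list by smallest p. Members, marker lists and pathway lists were chosen with earlier results of these data known. The count of chains whose co-culture libraries lay above the feeders and both groups of ES cells without feeders was chosen after the values were seen. The fit was tested on simulated counts. Alternatives were DESeq2 1.42.0 size factors and its Wald test, limma-voom (limma 3.58.1), no filter, a filter that keeps genes at 5 CPM in 3 libraries, the replicate number as a block, only the groups compared, each library left out, curated transcripts only and scaling on ES-specific genes. Labels give no batch or date.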

Additional observations from a re-analysis of the deposited data

Results flagged for a closer look

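The effect of the p53 label of the feeders in co-culture differed from its effect in the feeders alone. The interaction was tested as a contrast of these 4 groups in the fit of all 18 libraries (edgeR, adjusted over all genes tested). The effect was higher in co-culture for 34 of 42 chain genes and lower for 2, against 38.8% and 34.8% of all genes. Values are given for the 15 of them that the rule for named genes picked and that had more than 3 counts in each group. Each value is the log2 fold change in co-culture minus that in the feeders. Among fibrillar chains the difference was 4.25 for Col1a1, 4.71 for Col1a2, 3.50 for Col3a1, 2.73 for Col5a1 and 2.73 for Col5a2. Basement membrane chains differed by 2.99 (Col4a1) and 3.16 (Col4a2), and beaded filament chains by 2.39 (Col6a1), 3.09 (Col6a2) and 7.91 (Col6a3). The difference was 8.44 for Col12a1, 6.30 for Col8a2 and 5.47 for Col28a1. It had the opposite sign for Col18a1 (-1.55) and Col9a3 (-4.20). The signs and sizes of these differences are relative to all RNA, since scaling on ES-specific genes was not applied to the interaction. In the comparison of the co-cultures that scaling gave 0.73 for Col18a1 and 0.84 for Col9a3. ES-specific genes stood at 7.86% of their level after feeder removal in the co-culture on p53-defective feeders and at 80.2% in that on control feeders, and the part of this in the differences was not tested.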

How the results depend on the processing

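Of the values of the chains picked by the rule for named genes, under the alternatives, 2314 were counted as unchanged. These kept their side of the threshold, and a change of sign was not counted where neither fit called the gene. Another 20 lost the call, 2 gained it and 5 changed direction. The 5 were Col6a3 (1.60), Col18a1 (0.73), Col10a1 (0.28), Col2a1 (0.64) and Col22a1 (0.77) in the co-cultures scaled on ES-specific genes, where 14 of all 17 chains called lower changed direction. This scaling moved the median of all genes to 3.20 and the chain counts to 35 higher and 1 lower. Over all genes 13504 were then higher and 411 lower. That scaling also left 1 chain higher for ATN161 against control feeder co-culture and 2 against feeder removal. With curated transcripts alone, 0 chains were higher after feeder removal, 1 with ATN161 against control feeder co-culture, 2 with ATN161 against removal, and 2 were lower in the co-culture on p53-defective feeders against those feeders. The filter of 5 CPM, which tests fewer chains, left 1 higher with ATN161, 6 in the co-culture on control feeders and 6 after removal against control feeders. With single replicates left out, 1 to 2 chains were higher after removal (3 with all libraries), lowest without its replicate 2, and 2 to 4 with ATN161 against control feeder co-culture, lowest without replicate 1 or 3 of that co-culture. Curated transcripts gave shares of Col1a1, Col1a2 and Col3a1 of 67.2% on p53-defective feeders, 33.1% with ATN161, 56.2% after removal, 57.0% on control feeders, 48.4% in p53-defective feeders and 69.3% in control feeders. In the same order of groups, Col5a1 to Col5a2 was 0.162, 0.614, 0.771, 0.714, 0.0775 and 0.317, and Col6a3 to Col6a1 was 0.0055, 0.141, 0.0702, 0.0827, 0.0 and 0.0411. Summed TPM was 426 with ATN161, 1370 after removal and 2590 on control feeders. Apart from the filter and the leaving out of libraries, the cause was not tested.

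The replicate numbers were not taken as pairs, since no comparison had a correlation of same-numbered deviations over 0.1 in every pair. The correlations were 0.32, 0.0908 and 0.406 between the feeder groups and 0.0494, 0.233 and 0.336 for ATN161 against removal. Elsewhere they were -0.155 to 0.154, and pairing is not excluded by these values. With the replicate block, 4 chains were higher and 35 lower in the feeders, 19 and 17 in the co-cultures, and 4 and 24 with ATN161 against removal, close to the counts without it. Every sample correlated best with its own number in the comparison of ATN161 with removal alone. Depth limits chains under about 1 CPM, and 2 chains could not be tested.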
